A study of Mus musculus with 9 samples.

Results

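The Ms4a genes described here are 7 members of the membrane-spanning 4A family, Ms4a1, Ms4a4b, Ms4a4c, Ms4a6b, Ms4a6c, Ms4a6d and Ms4a7. They were taken by symbol from deposited tables that list 24054 genes, and all 7 passed the filter on low counts. Ms4a proteins cross the membrane several times and sit beside receptors, whose signalling they modulate. Ms4a1 encodes CD20, a marker of B cells that acts in calcium entry after antigen receptor signalling, and its relative Ms4a2 is the β chain of the high-affinity IgE receptor of mast cells. Ms4a4b was described as a modulator of T cell activation, Ms4a7 is best known from macrophages, and Ms4a4c, Ms4a6b, Ms4a6c and Ms4a6d are expressed across blood cells, macrophages and other myeloid cells among them.

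Splenic dendritic cells (DCs) of 3 groups were profiled by bulk RNA sequencing, with 3 libraries in each group. All mice were C57BL/6 animals of the genotype Clec9a-Cre/Cre Rosa-tdTomato/tdTomato, in which Cre is driven by Clec9a and both Clec9a alleles carry it, so that Tomato (TOM) marks cells with a history of Clec9a expression and every group lacked an intact Clec9a gene. Young TOM+ cDC2 and young TOM- DC2 were sorted at postnatal day 8, and adult TOM+ cDC2 were sorted at 8 weeks (replicates 2 and 3) or 9 weeks (replicate 1). Spleens of young mice were pooled before the sort. The sort kept live, single cells without autofluorescence that were MHCII+, CD11c+ and CD11b+ and then split them by TOM. The design compares cells of different history at one age, and TOM+ cells of the 2 ages with each other. Young TOM- DC2 were also set against the adult TOM+ cDC2, a comparison in which age and TOM differ together. The study describes the libraries as biological replicates, while the labels do not tie them to animals or pools, and p-values measure the spread between these libraries.

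The libraries held 12783252 to 22809401 reads counted on genes. Clec9a, which no group held intact, lay between 0.05 and 0.34 TPM (a level scaled by transcript length and library total) in all 9 libraries. Of the 6 listed cDC1 markers it was the only one under 1 TPM throughout. That list summed to 201 to 216, 216 to 233 and 240 to 253 TPM in young TOM+, young TOM- and adult cells, most of it Batf3. The part of cDC1 RNA was not tested. The 10 listed cDC2 markers, among them Itgax, H2-Ab1 and Cd209a, were all expressed. Against young TOM+ cDC2, 7 were higher and 2 lower in adults at an edgeR adjusted p under 0.05 (test below), beside 19.5% and 21% of all genes. Esam was 4.62-fold higher in adults. The study reports that the share of ESAM-high cells was still slightly below adult levels at the young age. The part of cDC2 subset makeup in the differences between young and adult cells was not tested. Neutrophil genes summed to 32.0 TPM in young TOM- replicate 1, with Ngp at 15.5 TPM, against at most 0.84 TPM in the other 8 libraries. In bulk libraries, fewer cells with a transcript and less transcript per cell cannot be told apart.

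All 7 genes lie within 355 kb of chromosome 19 (GRCm38), where RefSeq places 21 Ms4a genes. From low to high coordinates these are Ms4a1 (chr19:11249679-11266149), Ms4a7 (chr19:11321039-11336146), Ms4a4c (chr19:11404717-11427246), Ms4a4b (chr19:11443558-11463549), Ms4a6c (chr19:11469353-11487182), Ms4a6b (chr19:11518559-11530403) and Ms4a6d (chr19:11586606-11604804). Ms4a1, Ms4a7 and Ms4a6d are on the minus strand, and the other 4 are on the plus strand. Ms4a4b and Ms4a4c are neighbours and near-copies, identical at 622 of 678 coding bases (91.7%). Ms4a6b was identical to Ms4a6c at 85.4% and to Ms4a6d at 81.2% of aligned coding bases. Every other pair of members fell at or below 79.0%, and Ms4a1 reached at most 62.1%.

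These copies matter for the counts because reads were 50 bases long. The fourth coding exon shows the closest case. It has 126 bases in both genes and lies at chr19:11459153-11459278 in Ms4a4b and at chr19:11418993-11419118 in Ms4a4c, plus strand, with the 4 differing bases in capitals and a shared run of 118 bases after them, from which no 50-base read can be assigned to one gene.
Ms4a4b: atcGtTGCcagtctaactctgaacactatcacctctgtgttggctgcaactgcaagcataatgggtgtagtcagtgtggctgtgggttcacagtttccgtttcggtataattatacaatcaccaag
Ms4a4c: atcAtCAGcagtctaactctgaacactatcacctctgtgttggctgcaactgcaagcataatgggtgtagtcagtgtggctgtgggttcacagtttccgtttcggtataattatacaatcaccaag
The second coding exon of the Ms4a6 members shows a looser likeness. It has 135 bases, of which 117 are the same in all 3 genes, and the 18 that vary are in capitals. It lies at chr19:11521671-11521805 in Ms4a6b, at chr19:11472393-11472527 in Ms4a6c (both plus strand) and at chr19:11601830-11601964 in Ms4a6d (minus strand).
Ms4a6b: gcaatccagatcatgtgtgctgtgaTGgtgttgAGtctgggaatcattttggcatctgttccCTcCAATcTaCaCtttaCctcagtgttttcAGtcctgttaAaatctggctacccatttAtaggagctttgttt
Ms4a6c: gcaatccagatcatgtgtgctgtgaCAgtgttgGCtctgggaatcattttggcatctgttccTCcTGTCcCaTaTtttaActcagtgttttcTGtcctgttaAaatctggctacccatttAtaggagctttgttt
Ms4a6d: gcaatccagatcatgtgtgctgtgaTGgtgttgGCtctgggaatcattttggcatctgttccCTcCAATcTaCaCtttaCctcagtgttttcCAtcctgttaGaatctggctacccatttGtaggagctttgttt
Over the whole coding sequence, 13.7% of the 50-base stretches of Ms4a4c and 12.4% of those of Ms4a4b also occurred in a transcript of another gene, all of the latter in Ms4a4c. The share was 9.63% for Ms4a6c (58 stretches, 52 of them in an RNA on the opposite strand and 6 in Ms4a6b), 7.61% for Ms4a6b and 5.78% for Ms4a6d. Ms4a1 and Ms4a7 had no such stretch.

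The 2 deposited quantifications treat such reads differently. STAR counted uniquely mapped reads only, whereas RSEM divided reads with several possible origins among genes. The RSEM expected count was 1.11 ± 0.02 times the STAR count for Ms4a4b, 1.08 ± 0.0066 times for Ms4a4c and 1.06 ± 0.009 times for Ms4a6b (SD, n = 9 libraries). It was 1.01 ± 0.0084 times for Ms4a6c and 1.01 ± 0.021 times for Ms4a6d. For the members without shared coding stretches it was lower, at 0.973 ± 0.012 for Ms4a1 and 0.957 ± 0.024 for Ms4a7. Over 10112 expressed genes the median was 0.972, with a 5th to 95th percentile range of 0.915 to 1.73. Parts of the members' transcripts outside the coding sequence were not searched for shared stretches. The ratio of Ms4a4b lay between 1.08 and 1.14 in every library. With RSEM expected counts in place of STAR counts, each of the 7 members kept its direction and its side of the test's thresholds in all 3 comparisons between groups. Ms4a6c has a further limit. The annotated long noncoding RNA BE692007 runs over it on the opposite strand and covers 1088 of its 1841 exonic bases (59.1%), and because the counts used no strand, reads of the gene and of the antisense RNA cannot be told apart. BE692007 itself was not analysed here.

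**Figure D1:**
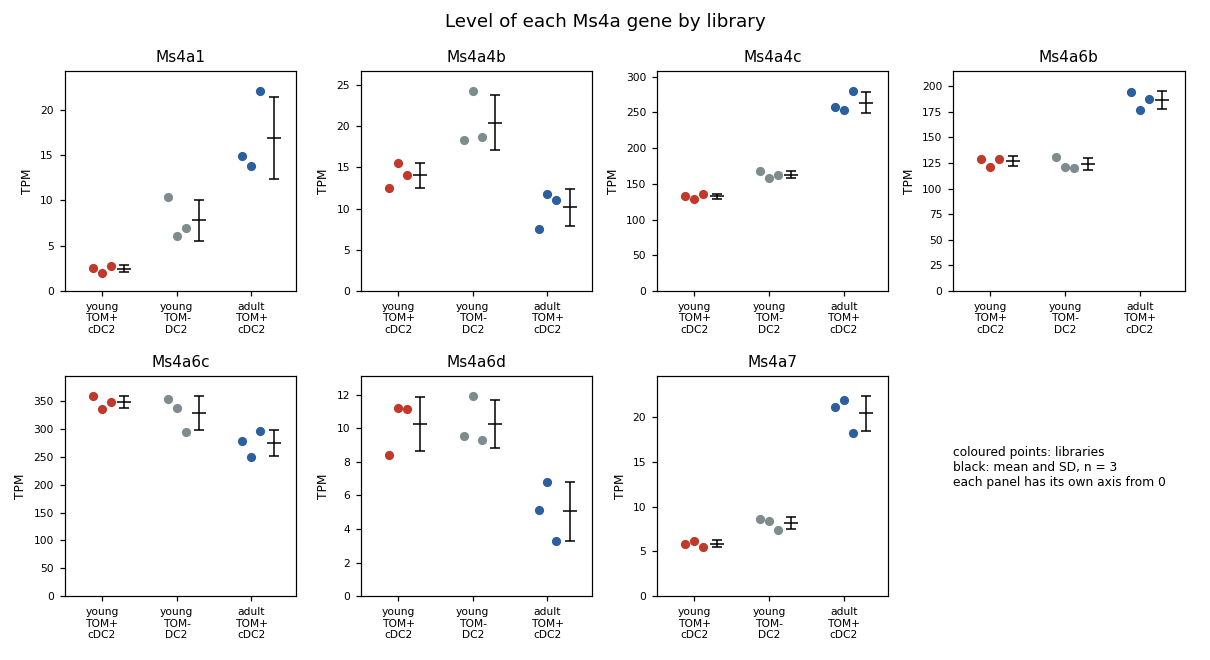
Level of each of the 7 Ms4a genes in TPM (vertical axis, from 0, a separate scale for each gene) in the 9 libraries, with coloured points for libraries and black marks for the group mean and SD (n = 3). Ms4a1, Ms4a4c, Ms4a6b and Ms4a7 sit highest in the adult libraries, whereas Ms4a6c, Ms4a6d and Ms4a4b have their lowest group means there.

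In levels, the family in these DCs was mainly Ms4a6c, Ms4a4c and Ms4a6b. In young TOM+ cDC2 the mean level fell from 348 TPM for Ms4a6c to 132 TPM for Ms4a4c and 127 TPM for Ms4a6b, whose libraries overlapped. It was then 14.0 TPM for Ms4a4b, 10.2 TPM for Ms4a6d, 5.86 TPM for Ms4a7 and 2.46 TPM for Ms4a1, with no overlap between neighbours. Young TOM- DC2 held the same order, with 328, 163, 124, 20.4, 10.3, 8.16 and 7.80 TPM, and here only the last pair, Ms4a7 and Ms4a1, overlapped. In adult TOM+ cDC2 the order was Ms4a6c (275 TPM), Ms4a4c (263 TPM), Ms4a6b (187 TPM), Ms4a7 (20.4 TPM), Ms4a1 (16.9 TPM), Ms4a4b (10.1 TPM) and Ms4a6d (5.07 TPM). The adult libraries of Ms4a6c and Ms4a4c overlapped, as did those of Ms4a7 and Ms4a1. Ms4a7 and Ms4a1, the last of the order in both young groups, thus stood above Ms4a4b and Ms4a6d in adults. STAR CPM per kilobase gave the same order in each group.

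**Figure D2:**
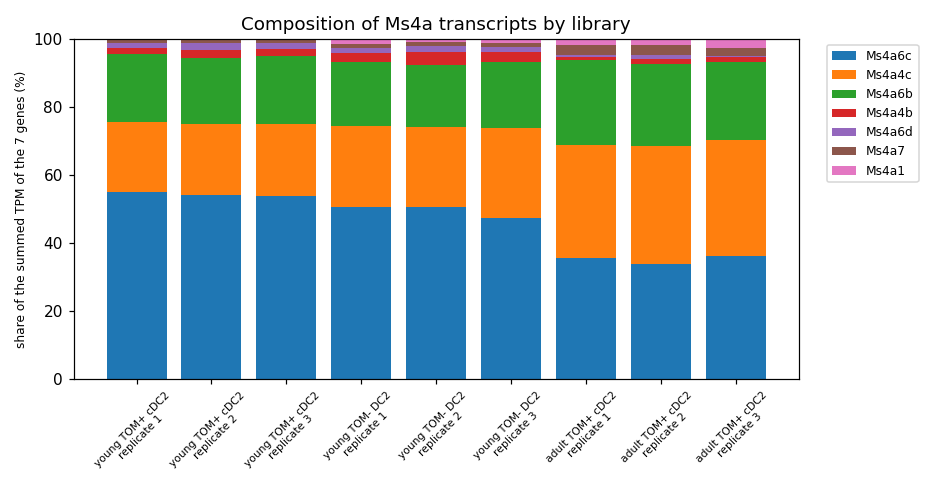
Share of each Ms4a gene in the summed TPM of the 7 genes (vertical axis, percent) for each of the 9 libraries (bars). Ms4a6c makes up more than any other member in the young libraries, and its share is smaller in the 3 adult libraries.

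In TPM, the makeup of the family shifted more than its total. On that scale the median gene lay higher in young cells (below), and the total was not taken in normalised counts. The 7 genes summed to 639 ± 16.6 TPM in young TOM+ cDC2, 662 ± 40.2 TPM in young TOM- DC2 and 778 ± 42.9 TPM in adult TOM+ cDC2 (SD, n = 3). Ms4a6c accounted for 54.4% of that sum in young TOM+ cDC2, 49.5% in young TOM- DC2 and 35.3% in adults. Ms4a4c accounted for 20.7%, 24.6% and 33.9% in the same order. In normalised counts Ms4a6c showed no difference from adults that passed the edgeR test. Its TPM also rests on an estimated transcript length, which was longer in adults (both below). The ratio of Ms4a6c to Ms4a4c in TPM was 2.63 ± 0.0686 in young TOM+ cDC2, 2.02 ± 0.178 in young TOM- DC2 and 1.04 ± 0.0497 in adults, with no overlap between any pair of groups. The exact permutation test gave p = 0.1 for each pair of groups, which is the smallest p that 3 against 3 libraries allow (two-sided).

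**Figure D3:**
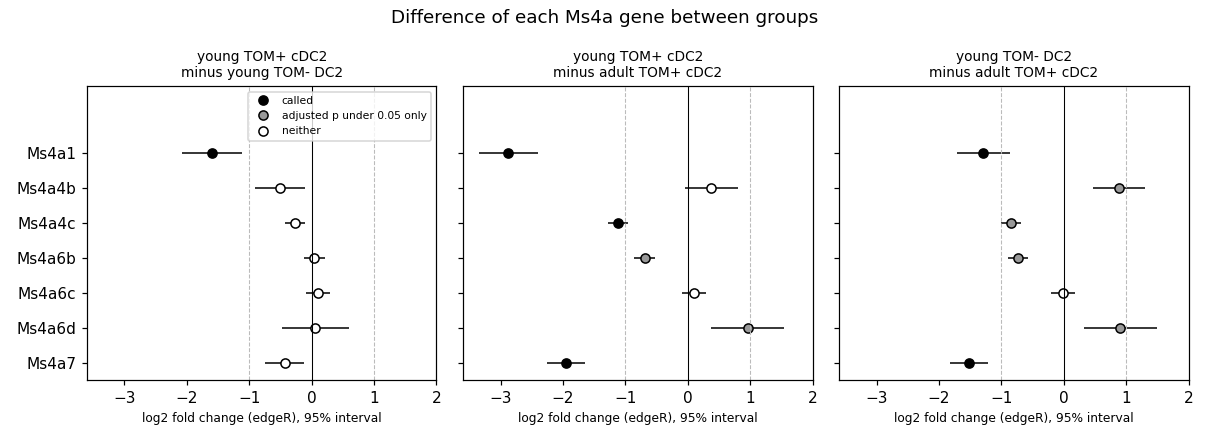
Log2 fold change of each Ms4a gene (horizontal axis, first group minus second group, edgeR) with its 95% interval, in 3 comparisons. Black points were called (log2 fold change beyond 1 and adjusted p under 0.05), grey points passed the adjusted p only and open points passed neither, and dashed lines mark a log2 fold change of 1 in either direction.

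Between the young groups only Ms4a1 was called, 1 of 7 genes beside 1.18% of the 14452 genes tested in either direction and 1.16% in its direction, higher in TOM- DC2. A call required a log2 fold change beyond 1 and an adjusted p under 0.05 (edgeR quasi-likelihood test, Benjamini-Hochberg over all genes tested). It was also the one member with an adjusted p under 0.05, beside 1.6% of all genes in either direction and 1.47% in its own. The libraries of 5 members did not overlap between the young groups in normalised counts, beside 16.6% of all genes. Between young TOM+ cDC2 and adult TOM+ cDC2, 3 members were called, all higher in adults (Ms4a1, Ms4a4c and Ms4a7), beside 12.8% of all genes called in either direction and 6.86% called higher in adults. A further 2 passed the adjusted p only, Ms4a6b higher and Ms4a6d lower in adults, so that 5 of 7 passed it beside 40.6% of all genes. The same 5 did not overlap between the groups, beside 51.1% of all genes. Between young TOM- DC2 and adult TOM+ cDC2, 2 members were called, both higher in adults (Ms4a1 and Ms4a7), beside 11.3% of all genes and 4.78% in that direction. Here 4 more passed the adjusted p only, Ms4a4c and Ms4a6b higher and Ms4a4b and Ms4a6d lower in adults, so that 6 of 7 passed it beside 36.3% of all genes. These 6 did not overlap between the groups, beside 47.6% of all genes. The last 2 comparisons share the adult libraries. The median log2 fold change of the members was −0.69 and −0.73 in them (young minus adult), beside 0.05 and 0.07 over all genes tested.

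TPM and counts are scaled differently, and this bears on the comparisons with adults. In a limma fit to log2(TPM + 0.1) the median gene lay 0.17 higher in young TOM+ cDC2 and 0.22 higher in young TOM- DC2 than in adults on the log2 scale. With that fit, 57.4% of the calls were higher in young TOM+ cDC2 and 70.3% in young TOM- DC2, against 46.5% and 57.6% in the counts. Changes of a member near these shifts are therefore given on both scales.

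Ms4a1, the CD20 gene of B cells, had the widest range of the 7. Its level was 2.56, 2.04 and 2.77 TPM in young TOM+ cDC2, 10.4, 6.02 and 6.99 TPM in young TOM- DC2 and 14.9, 13.8 and 22.1 TPM in adult TOM+ cDC2. The 3 groups did not overlap, and the young TOM+ libraries lay lowest. STAR counts ran from 43 to 70, from 119 to 199 and from 209 to 434, so that counting error is largest in the young TOM+ libraries. Ms4a1 was 3.01-fold higher in young TOM- DC2 than in young TOM+ cDC2, with a log2 fold change of −1.59 ± 0.22 (SE, TOM+ minus TOM-) and an edgeR adjusted p of 0.0018. It was 7.35-fold higher in adults than in young TOM+ cDC2 (−2.88 ± 0.22, edgeR adjusted p = 1.5e-06) and 2.44-fold higher than in young TOM- DC2 (−1.29 ± 0.2, edgeR adjusted p = 0.00031). Both comparisons with adults and the comparison of young cells kept their call in every alternative tried.

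**Figure D4:**
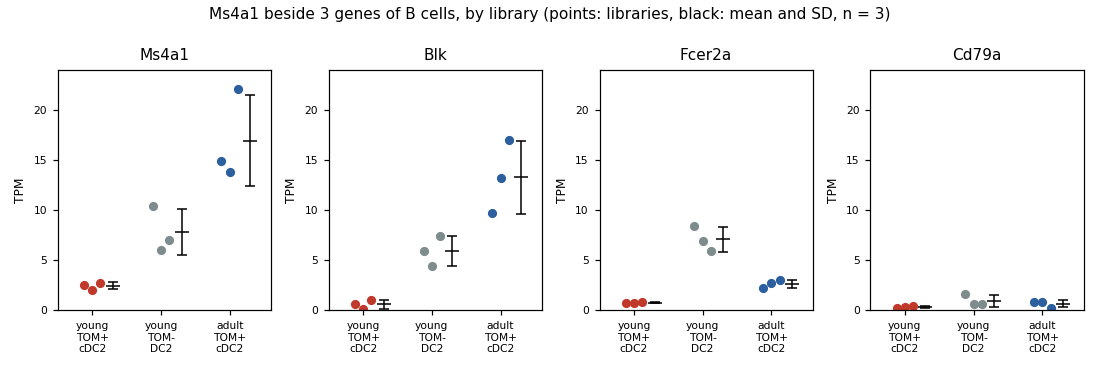
Level of Ms4a1, Blk, Fcer2a and Cd79a in TPM (vertical axes, one scale from 0) in the 9 libraries, with points for libraries and black marks for the group mean and SD (n = 3). Ms4a1 and Blk rank the groups alike, Fcer2a is highest in young TOM- DC2, and Cd79a stays at or below 1.59 TPM.

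Some genes of B cells moved with Ms4a1 and others did not. Of 13 listed B cell markers, 11 could be tested, and 2 of them, Blk and Fcer2a, were called between the young groups, both higher in TOM- DC2 (beside 1.16% of all genes). Against adults, 4 were called higher in adults than in young TOM+ cDC2 (Fcer2a, Cr2, Blk and Cd22, beside 6.86% of all genes). Against young TOM- DC2, 3 were called higher in adults (beside 4.78%) and Fcer2a lower (beside 6.5%). Blk, a kinase of B cell receptor signalling, was at 0.63, 0.12 and 1.06 TPM in young TOM+ cDC2, 5.93, 4.38 and 7.42 TPM in young TOM- DC2 and 9.68, 13.2 and 17.0 TPM in adults, the same order of groups as Ms4a1. Fcer2a, the low-affinity IgE receptor CD23, was at 0.70 to 0.79, 5.94 to 8.36 and 2.23 to 2.98 TPM, with its highest values in young TOM- DC2. Other defining B cell genes were near 0 TPM, with Cd79a at no more than 1.59 TPM in any library, and Pax5 and Ebf1 under 1 TPM in all. Cd79b, at 58.5 to 68.2 TPM in the 6 young libraries and 25.3 to 35.6 TPM in adults, was lower in adults than in both young groups by the edgeR test, the opposite of Ms4a1 (log2 fold changes 0.90 and 0.93, adjusted p = 5.3e-05 and 5e-05). The summed level of the list ran from 177 to 246 TPM in young TOM+ cDC2, 191 to 279 TPM in young TOM- DC2 and 237 to 245 TPM in adults, most of it Cd22, Cd79b and Spib. The part of B cell RNA in the Ms4a1 result was not tested. Of 7 listed genes of group 3 innate lymphoid cells, 6 could be tested, and 2 were called higher in young TOM- DC2 than in young TOM+ cDC2, as Ms4a1 was. They were Gata3, at 2.12 to 2.52 against 0.11 to 0.26 TPM, and Il18r1, at 1.01 to 2.42 against 0.17 to 0.24 TPM. Il23r, Il22 and Tox were under 1 TPM in every library, and the summed level, nearly all of it Id2, ran from 319 to 487 TPM in young TOM+ cDC2, 433 to 650 TPM in young TOM- DC2 and 486 to 542 TPM in adults. Their part in the Ms4a1 result was not tested. The library with the highest Cd79a was young TOM- replicate 1, which also had the most Ms4a1 of its group and the neutrophil genes. Without it, the log2 fold change of Ms4a1 between the young groups was −1.40 (edgeR adjusted p = 0.0048, range over the 19 alternatives 1.5e-08 to 0.019).

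Ms4a4c and Ms4a4b, the near-identical neighbours, differed in level and in direction with age. The Ms4a4c difference between young and adult TOM+ cells passed the adjusted p, and that of Ms4a4b did not. For young TOM- DC2 against adults, the differences of both genes passed it. Between the young groups both were higher in TOM- DC2, without passing the edgeR test. Ms4a4c stood at 133, 128 and 136 TPM in young TOM+ cDC2, 168, 158 and 162 TPM in young TOM- DC2 and 257, 253 and 280 TPM in adults. The groups did not overlap. Ms4a4c rose with age in TOM+ cells by 2.16-fold (log2 fold change −1.11 ± 0.08, young minus adult, edgeR adjusted p = 7.7e-07). In limma fits to log2(TPM + 1) and log2(TPM + 0.1) its difference was −0.99, just short of the fold limit. Adults were 1.80-fold above young TOM- DC2, short of that limit (−0.85 ± 0.08, edgeR adjusted p = 6.7e-06). In young cells Ms4a4c was 1.20-fold higher in TOM- DC2 and did not pass the edgeR test (−0.27 ± 0.08, adjusted p = 0.14), although DESeq2 gave an adjusted p of 0.016 and the 19 alternatives ranged from 0.016 to 0.43.

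Ms4a4b stood at 12.5, 15.5 and 14.1 TPM in young TOM+ cDC2, 18.4, 24.3 and 18.7 TPM in young TOM- DC2 and 7.59, 11.8 and 11.02 TPM in adults. The young TOM- libraries lay highest and the adult libraries lowest, without overlap between groups in TPM. In normalised counts young TOM+ cDC2 and adults overlapped, and the difference did not pass (log2 fold change 0.38 ± 0.19, edgeR adjusted p = 0.14). Young TOM- DC2 were 1.84-fold above adults (0.88 ± 0.19, edgeR adjusted p = 0.0033), short of the fold limit. Without adult replicate 2 this difference reached 1.00 and was called (edgeR adjusted p = 0.0051, range over alternatives 0.00038 to 0.018). In young cells it was 1.41-fold higher in TOM- DC2 and did not pass (−0.50 ± 0.18, edgeR adjusted p = 0.33). Ms4a4c exceeded Ms4a4b 9.51 ± 1.17-fold in young TOM+ cDC2, 8.11 ± 1.42-fold in young TOM- DC2 and 26.9 ± 6.37-fold in adults, in TPM. The adult ratios, 21.4 to 33.9, did not overlap with those of either young group (exact permutation test, two-sided p = 0.1, the smallest possible).

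T cell genes were looked at beside Ms4a4b because of its known expression in T cells. Of the 12 listed, 2 were called higher in young TOM+ cDC2 than in adults (Cd6 and Cd28, beside 5.96% of all genes), and 2 higher in young TOM- DC2 than in adults (Cd28 and Lck, beside 6.5%). Cd28 had at most 10 counts in a library and 0 in all adult libraries. Between the young groups 0 of the 12 were called, beside 1.18% of all genes. Within each young group replicate 2 had the most Ms4a4b, and the same libraries held Cd3e at 1.22 TPM (TOM+) and 1.74 TPM (TOM-) against at most 0.26 TPM in the other 7 libraries. Cd3g was at 2.77 and 0.97 TPM in them and at most 0.26 TPM elsewhere. Both libraries carry the number 91 in their deposited names, as does adult replicate 1, which had 0 counts of Cd3e and Cd3g. Adult replicate 2, with the most Ms4a4b of the adults (11.8 TPM), also had 0 counts of Cd3e and Cd3g. Without young TOM- replicate 2, Ms4a4b was still higher in young TOM- DC2 than in adults (log2 fold change 0.72, edgeR adjusted p = 0.018). The summed level of the T cell list ran from 31.3 to 33.0, from 42.7 to 43.6 and from 23.7 to 32.9 TPM in young TOM+, young TOM- and adult cells. Most of it was Cd5, at 20.5 to 37.0 TPM over all libraries, while Themis, Bcl11b and Thy1 were under 1 TPM in every library. As for Ms4a4b, the sums were highest in young TOM- DC2, and the part of T cell RNA in the result was not tested.

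The stretch before the transcription start is also alike in both genes. The 250 bases upstream of the start (RefSeq, GRCm38.p6, plus strand, chr19:11443308-11443557 for Ms4a4b and chr19:11407411-11407660 for Ms4a4c, whose start in the promoter table lies inside the gene span given above) are shown because the ratio of these neighbours differed between young and adult libraries. Bases that differ, or that have no counterpart in the alignment, are in capitals, and 182 of 232 aligned bases (78.4%) are identical.
Ms4a4b: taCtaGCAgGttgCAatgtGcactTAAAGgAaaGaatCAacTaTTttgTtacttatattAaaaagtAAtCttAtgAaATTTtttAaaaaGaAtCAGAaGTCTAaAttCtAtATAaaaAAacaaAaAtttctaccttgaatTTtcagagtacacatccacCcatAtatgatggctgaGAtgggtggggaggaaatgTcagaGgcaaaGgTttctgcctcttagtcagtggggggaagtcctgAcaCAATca
Ms4a4c: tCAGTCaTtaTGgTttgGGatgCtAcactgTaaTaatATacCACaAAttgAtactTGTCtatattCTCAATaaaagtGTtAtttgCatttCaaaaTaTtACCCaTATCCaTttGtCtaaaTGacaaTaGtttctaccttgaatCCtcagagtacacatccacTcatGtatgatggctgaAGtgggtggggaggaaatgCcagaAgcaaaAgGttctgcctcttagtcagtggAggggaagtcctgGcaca
In this alignment the bases closer to the start hold few capitals, and most differences lie in the distal stretch. Promoter sequence was matched for 5 of the 7 members, with 2 starts for Ms4a7. Both strands of these 250-base windows were searched for the core of the interferon-stimulated response element (2 GAAA repeats with 2 bases between them), GAGGAAGT (a PU.1 site), TTCNNNGAA (a STAT site) and TGANTCA (an AP-1 site), which are present in 2.98%, 2.44%, 7.02% and 6.75% of 32851 windows. The one match was TGANTCA, in the window of one Ms4a7 start, 81 to 75 bases before it.

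Ms4a6b rose with age on both scales. Its level was 129, 121 and 129 TPM in young TOM+ cDC2, 131, 122 and 121 TPM in young TOM- DC2 and 195, 177 and 188 TPM in adults. The young groups overlapped, and all adult libraries lay above both. Adults were 1.61-fold above young TOM+ cDC2 (log2 fold change −0.69 ± 0.08, edgeR adjusted p = 2.6e-05) and 1.66-fold above young TOM- DC2 (−0.73 ± 0.08, edgeR adjusted p = 2.1e-05), short of the fold limit in both. Between the young groups the difference was 0.04 ± 0.08 with a 95% interval from −0.12 to 0.21 (edgeR adjusted p = 0.95).

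Ms4a6c, the most abundant member, showed no age difference in counts that passed the test. Its normalised counts (CPM, edgeR) were 246, 241 and 248 in young TOM+ cDC2, 237, 239 and 209 in young TOM- DC2 and 243, 208 and 237 in adults. Adult libraries overlapped with both young groups, and the young groups did not overlap with each other. The log2 fold change was 0.10 (95% interval −0.09 to 0.29) for young TOM+ cDC2 against adults and −0.01 (−0.20 to 0.18) for young TOM- DC2 against adults, with edgeR adjusted p of 0.41 and 0.96. For the young groups it was 0.10 (−0.09 to 0.29, edgeR adjusted p = 0.85). In TPM the same libraries read 358, 336 and 349, then 353, 337 and 294, and 278, 250 and 297 in adults. In a limma fit to log2(TPM + 1) this gave 0.25 for young TOM- DC2 against adults (adjusted p = 0.041, range over alternatives 0.041 to 1.00), the opposite sign to the count result. The young TOM+ difference reached 0.34 in its highest alternative (range of adjusted p 0.011 to 0.82).

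**Figure D5:**
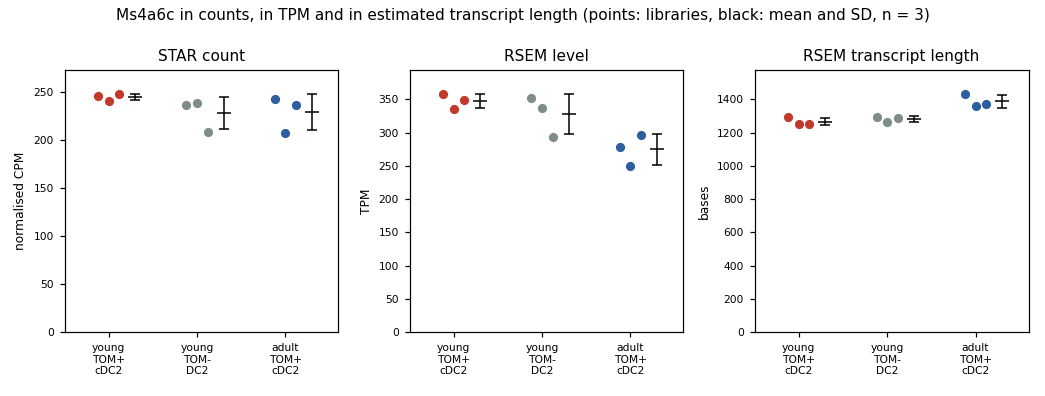
Ms4a6c in normalised STAR counts (CPM), in TPM and in the transcript length estimated by RSEM in bases (vertical axes from 0), with points for the 9 libraries and black marks for the group mean and SD (n = 3). Counts of the adult libraries overlap with both young groups, TPM is lower in adults than in young TOM+ cDC2, and the estimated length is longest in the 3 adult libraries.

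TPM divides by transcript length, and the length estimated for Ms4a6c differed between the groups. Ms4a6c has 2 RefSeq transcripts in the files, and RSEM weights the gene's length by their estimated shares. That length was 1293, 1254 and 1254 bases in young TOM+ cDC2, 1295, 1262 and 1287 bases in young TOM- DC2 and 1435, 1361 and 1371 bases in adults. Adult lengths lay above all young ones, by 122 bases on average against young TOM+ cDC2 (exact permutation test, two-sided p = 0.1, the smallest possible) and by 108 bases against young TOM- DC2 (exact p = 0.1). The young groups overlapped (exact p = 0.3). The shift was 0.12 on the log2 scale between adults and young cells, and 58 of 10112 expressed genes (0.574%) shifted in length by at least as much. Those genes include ones with a single transcript, whose length cannot shift, so the share among genes with several transcripts is not known. Lengths of the 5 members with a single transcript are fixed, and that of Ms4a7, with 3 transcripts, ran from 1318 to 1336 bases. For Ms4a6c, with 2 transcripts, a longer weighted length means that the longer transcript took a larger estimated share. The shares themselves are not given at gene level. The overlap with BE692007 applies to this estimate too.

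Ms4a6d, which is known from macrophages, fell with age, the opposite of Ms4a6b. It stood at 8.41, 11.2 and 11.2 TPM in young TOM+ cDC2, 9.55, 11.9 and 9.3 TPM in young TOM- DC2 and 5.15, 6.78 and 3.28 TPM in adults. All adult libraries lay below all young ones. The log2 fold change was 0.96 ± 0.27 for young TOM+ cDC2 against adults (1.95-fold, edgeR adjusted p = 0.013) and 0.90 ± 0.27 for young TOM- DC2 against adults (1.87-fold, edgeR adjusted p = 0.02). Adult counts were 49, 65 and 40. The young TOM+ difference passed the fold limit without young TOM+ replicate 1 (1.12) or adult replicate 2 (1.25), and the young TOM- difference missed an adjusted p of 0.05 without young TOM- replicate 2 (0.083) or adult replicate 3 (0.076). Between the young groups the log2 fold change was 0.06 with an interval from −0.48 to 0.60 (edgeR adjusted p = 0.98), and its sign changed under several alternatives. Set against its neighbour, Ms4a6b was 12.6 ± 2.45-fold above Ms4a6d in young TOM+ cDC2, 12.3 ± 1.87-fold in young TOM- DC2 and 40.4 ± 15.8-fold in adults, in TPM.

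Ms4a7 was higher in adults than in either young group. Its level was 5.88, 6.21 and 5.49 TPM in young TOM+ cDC2, 8.6, 8.4 and 7.4 TPM in young TOM- DC2 and 21.1, 21.9 and 18.2 TPM in adults. The 3 groups did not overlap, with a gap between the highest young and the lowest adult library that was wider than the spread in any group. Adults were 3.87-fold above young TOM+ cDC2 (log2 fold change −1.95 ± 0.14, edgeR adjusted p = 1e-06) and 2.87-fold above young TOM- DC2 (−1.52 ± 0.14, edgeR adjusted p = 6.9e-06). Among young cells it was 1.35-fold higher in TOM- DC2 and did not pass (−0.43 ± 0.14, edgeR adjusted p = 0.26).

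Genes of monocytes and macrophages, listed because Ms4a7 and Ms4a6d are known from those cells, included several that fell with age, the opposite of Ms4a7. Of 20 listed, 19 could be tested, and 4 were called higher in young TOM+ cDC2 than in adults and 6 higher in young TOM- DC2 than in adults, beside 5.96% and 6.5% of all genes in those directions. At an adjusted p under 0.05 alone, 8 were higher in young TOM+ cDC2, beside 21% of all genes. In that comparison 1 was higher in adults, Vcam1 (log2 fold change −0.74, edgeR adjusted p = 0.00073), beside 19.5% of all genes. Against adults, 10 were higher in young TOM- DC2, beside 19.4% of all genes. Hmox1, a haem-degrading enzyme, stood at 39.1, 56.1 and 39.4 TPM in young TOM+ cDC2, 70.8, 80.4 and 67.1 TPM in young TOM- DC2 and 17.3, 17.5 and 9.07 TPM in adults. C1qa was at 25.3 to 32.9, 37.9 to 46.3 and 11.99 to 27.1 TPM. Its difference did not pass for young TOM+ cDC2 against adults (log2 fold change 0.27, edgeR adjusted p = 0.43). For young TOM- DC2 against adults it passed the adjusted p only (0.79, edgeR adjusted p = 0.028). C1qb and C1qc passed and failed in the same comparisons. C1qa was lowest in adult replicate 3. That library also had the least Ms4a6d and the least Ms4a7 of the adults. Without it, the log2 fold change of Ms4a6d was 0.69 (edgeR adjusted p = 0.05) and 0.63 (edgeR adjusted p = 0.076) in the 2 comparisons with adults. The summed level of the list ran from 1110 to 1200 TPM in young TOM+ cDC2, 1110 to 1240 TPM in young TOM- DC2 and 897 to 1040 TPM in adults. Marco was under 1 TPM in every library, and the part of macrophage RNA in the Ms4a6d result was not tested.

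The rest of the family was nearly silent. Of 16 further listed relatives, 11 are in the files. Ms4a2, Ms4a3, Ms4a5 and Ms4a18 had 0 counts in all 9 libraries, and Ms4a4d, Ms4a8a, Ms4a10, Ms4a13 and Ms4a15 had at most 7 counts in any one. Of 9 listed genes of mast cells and basophils, whose cells carry Ms4a2, 8 were under 1 TPM in every library, Fcer1a, Cpa3 and Mcpt8 among them. The other, the histamine-forming enzyme Hdc, rose from 5.60 to 6.63 TPM in young TOM+ cDC2 and 8.77 to 10.1 TPM in young TOM- DC2 to 15.9 to 22.3 TPM in adults (log2 fold changes −1.82 and −1.20, edgeR adjusted p = 1.8e-06 and 3.9e-05, both called). The exceptions were Tmem176a and Tmem176b, related genes that encode membrane proteins of DCs, at 206 and 480 on the same normalised count scale in young TOM+ cDC2, 185 and 417 in young TOM- DC2 and 409 and 859 in adults. Both rose with age. Adults exceeded young TOM- DC2 2.22-fold for Tmem176a (log2 fold change −1.15 ± 0.11, edgeR adjusted p = 1.3e-05) and 2.06-fold for Tmem176b (−1.04 ± 0.09, edgeR adjusted p = 6.5e-06), both called. Against young TOM+ cDC2 the folds were 1.98 (−0.99 ± 0.11, edgeR adjusted p = 2.9e-05) and 1.79 (−0.84 ± 0.09, edgeR adjusted p = 2.2e-05), short of the fold limit. Neither passed the test between the young groups, with log2 fold changes of 0.16 and 0.20.

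Likeness across the 9 libraries was measured as the root mean square difference in centred log2 normalised counts against 10111 other expressed genes. Among the members Ms4a4c and Ms4a6b were closest (0.186), followed by Ms4a6b with Ms4a6c (0.363) and Ms4a4c with Ms4a7 (0.368), while the near-copies Ms4a4b and Ms4a4c were 0.792 apart. How many genes come close depends on a member's own spread, which was largest for Ms4a1 (SD 1.25 on the log2 scale) and smallest for Ms4a6c (0.0964). The nearest genes to Ms4a1 were Serpinb6b (0.257), Tmod2 (0.296) and Snn (0.309), and no gene came within 0.2. Ms4a4b was nearest to Gapt (0.164), Tlr2 (0.191) and Ctsd (0.2), with 3 genes within 0.2. Ms4a6d was nearest to Vim (0.133), H2afx (0.158) and Ccdc109b (0.162), with 9 within 0.2. Ms4a7 was nearest to Jag1 (0.140), Isg15 (0.151) and Oas1a (0.158), with 22 within 0.2. More genes lay near Ms4a4c, nearest to Gpr18 (0.0673), Helz2 (0.0732) and Trim12a (0.0745), and for Ms4a6b, nearest to Fgl2 (0.0624), Ubac2 (0.0628) and Akap7 (0.0640), with 337 and 975 genes within 0.2. Ms4a6c, nearest to Shoc2 (0.0330), Mettl16 (0.0384) and Ap3m1 (0.0404), had 3718 genes within 0.2. These distances rest on 9 points in 3 groups and describe the group pattern mainly.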

How the data were processed

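Bulk RNA of sorted splenic DCs was made into cDNA with the SMART-Seq v4 kit, which does not mark strand, and sequenced as 50-base single-end reads. The authors aligned reads with STAR to mm10 and deposited unnormalised counts per gene (the unstranded column, uniquely mapped reads) and RSEM tables holding expected counts, TPM and estimated transcript length. Tool versions are not given in the sources used here. STAR counts were the main data. The 14452 genes whose count averaged 1 or more entered edgeR 4.0.16 (TMM, quasi-likelihood F-test) with all 9 libraries in 3 groups, and adjusted p-values were taken over all of them. Levels are TPM as deposited. Reads that STAR assigned to several places were left out of its counts. They made up 12.86% to 13.41% of reads in young TOM+, 12.68% to 13.16% in young TOM- and 10.44% to 10.85% in adult libraries. The script was tested on simulated counts before use.

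The members and lists were chosen with earlier results of these data known, and 2 genes were taken out of the marker lists and are not analysed here. Named genes were the 7 members, their listed relatives, genes of the marker lists beside a member's result and the 3 genes nearest each member with an average count of at least 50. Alternatives were DESeq2 1.42.0 (size factors, Wald test, apeglm 1.24.0), limma 3.58.1 on log2(TPM + 1) and log2(TPM + 0.1), RSEM expected counts rounded to whole numbers, other count filters, 2-group fits, a replicate block and the omission of each library. The number in the deposited names (81, 91 or 92) served as the block for the young libraries (adults without a block term), since deviations from the group mean correlated between young libraries of the same number (r = 0.746, 0.501 and 0.517 over 10112 genes) and ran from −0.517 to 0.163 between different numbers. Adult libraries carry 91, 92 and 95. What the number stands for is not stated in the sources used here. No replicate pair agreed within sampling noise (chi-square of 9.21 to 24.4 per gene). Coding sequence and 50-base stretches were taken from GENCODE vM21 transcripts that match the RefSeq transcripts in the files, 9 of 10 for the members, and promoters from RefSeq (GRCm38.p6).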

Additional observations from a re-analysis of the deposited data

How the results depend on the processing

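Over the 19 alternatives, 379 of 399 log2 fold changes of members kept their direction and their call (fold and adjusted p together), 11 changed sign, 7 became calls and 2 ceased to be calls. In 7 of the 379 the adjusted p alone crossed 0.05, for Ms4a4c between the young groups, Ms4a6c in TOM+ cells with TPM and Ms4a6d in young TOM- DC2 against adults. Between the young groups, 2 members instead of 1 passed an adjusted p of 0.05 with the DESeq2 Wald test, DESeq2 with apeglm and limma on log2(TPM + 1), the added one being Ms4a4c. For young TOM- DC2 against adults, 4 members instead of 2 were called with limma on log2(TPM + 0.1). Omitting each library in turn left 1 member called between the young groups (range 1 to 1), 3 to 4 for young TOM+ cDC2 against adults and 2 to 4 for young TOM- DC2 against adults, where 4 were called without adult replicate 2, and 5 to 6 members passed the adjusted p in that last comparison. The log2 fold change of Ms4a6d between the young groups was 0 in both limma fits and −0.03 to 0.23 with a library left out, and that of Ms4a6c for young TOM- DC2 against adults was 0.25 in both limma fits and −0.07 to 0.04 with a library left out. The cause of these changes was not tested. With the replicate block, 211 genes were called between the young groups instead of 170, and no member's call or side of the adjusted p changed in any comparison. Limma on log2(TPM + 1) called 1122 and 986 genes in the 2 comparisons with adults, against 1853 and 1631 by edgeR. Counts in adults were lowest for Ms4a6d (40 to 65), whose interval was the widest of the 7 in each comparison.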
